A study of Homo sapiens with 6 samples.

Results

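RNA-seq was performed on the human cell line HAP1 (C631) and on a HELLS KO clone of it, and 10 genes of the Prader-Willi region of chromosome 15 are described here. They are MKRN3, MAGEL2, NDN, NPAP1, SNRPN, SNURF and SNHG14, which are known to be expressed from the paternal chromosome, with UBE3A, ATP10A and NIPA2 beside them. They were found by matching gene symbols through Ensembl identifiers, and all 10 were among the 60483 gene rows. HAP1 is a near-haploid adherent line derived from chronic myelogenous leukemia, and HELLS is a chromatin remodelling ATPase that has been linked to DNA methylation in other systems. HAP1 is wild type for HELLS, HELLS KO is 1 clone with an insertion of 1 base in exon 3, and the cells of both genotypes were under normal growth with no treatment. Each genotype had 3 libraries, replicate 3 of each carries a batch label, and a difference of the clone from its parental line cannot be told apart from an effect of HELLS.

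In the Prader-Willi region the copy inherited from the father is active for a cluster of genes, and the maternal copy is silenced by DNA methylation. The start region of SNURF and SNRPN is the imprinting centre that sets this state for the cluster. From there a long non-coding RNA, SNHG14, runs through clusters of small nucleolar RNA genes and into UBE3A on the opposite strand. UBE3A itself is expressed from the maternal copy in neurons and from both copies in most other tissues. Loss of the paternal genes causes Prader-Willi syndrome, and loss of maternal UBE3A causes Angelman syndrome. The parental origin of chromosome 15 in these cells and its DNA methylation were not measured in these libraries.

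The sequences before gene starts are shown because CpG methylation in the paternally expressed cluster, as at the imprinting centre, distinguishes the parental copies in normal tissue. The windows of UBE3A, ATP10A and NIPA2 are given for comparison only. The 250 bases before each start were taken from RefSeq (GRCh38.p14), for which all 10 genes matched. Below are NDN, MKRN3, the SNURF window at the imprinting centre and UBE3A, written 5′ to 3′ on the strand of the gene, with every CpG in capitals. The windows are chr15:23687306-23687555 on the - strand for NDN, chr15:23565424-23565673 on the + strand for MKRN3, chr15:24954737-24954986 on the + strand for SNURF and chr15:25439025-25439274 on the - strand for UBE3A.
NDN: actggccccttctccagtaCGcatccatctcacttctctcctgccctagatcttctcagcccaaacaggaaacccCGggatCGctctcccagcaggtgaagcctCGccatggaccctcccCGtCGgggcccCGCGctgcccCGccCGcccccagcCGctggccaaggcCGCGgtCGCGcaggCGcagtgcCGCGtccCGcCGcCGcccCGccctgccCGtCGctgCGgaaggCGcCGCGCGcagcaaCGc
MKRN3: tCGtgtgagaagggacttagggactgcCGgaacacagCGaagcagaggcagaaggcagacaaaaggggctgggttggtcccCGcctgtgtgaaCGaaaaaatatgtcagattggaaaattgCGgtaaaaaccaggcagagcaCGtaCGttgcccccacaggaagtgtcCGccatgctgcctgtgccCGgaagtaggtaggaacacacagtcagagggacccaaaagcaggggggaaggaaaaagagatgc
SNURF: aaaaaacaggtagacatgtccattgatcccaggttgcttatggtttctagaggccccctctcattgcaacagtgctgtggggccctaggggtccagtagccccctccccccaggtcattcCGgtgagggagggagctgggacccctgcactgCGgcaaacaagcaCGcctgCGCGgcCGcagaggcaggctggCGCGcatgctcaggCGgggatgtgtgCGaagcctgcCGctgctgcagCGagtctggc
UBE3A: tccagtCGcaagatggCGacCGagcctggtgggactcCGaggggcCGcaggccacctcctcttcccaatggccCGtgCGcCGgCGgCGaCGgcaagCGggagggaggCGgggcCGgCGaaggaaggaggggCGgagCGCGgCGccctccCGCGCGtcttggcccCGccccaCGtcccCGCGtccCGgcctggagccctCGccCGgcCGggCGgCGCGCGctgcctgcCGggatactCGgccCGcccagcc

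The NDN window held 30 CpG sites and the UBE3A window 37, which places them at percentiles 87.6 and 96.0 of 35116 RefSeq windows of the same length. The MKRN3 window held 10 and the SNURF window 12, close to the median of 11 over all windows. The SNURF window ends at the gene start, so its count does not describe the CpG content of the imprinting centre as a whole. Among the other paternally expressed genes, NPAP1 had 22 CpG sites, MAGEL2 had 8 and SNHG14, whose RefSeq start lies at the upstream end of SNRPN, had 4. SNRPN has 4 RefSeq windows, of which 1 is the SNURF window and the others held 6, 1 and 6 CpG sites. The other windows of UBE3A held 31 and 33, and those of ATP10A and NIPA2 held 31 and 29. The windows of the 7 paternally expressed genes thus held 1 to 30 CpG sites, and that of NDN alone among them fell in the range of UBE3A, ATP10A and NIPA2.

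**Figure D1:**
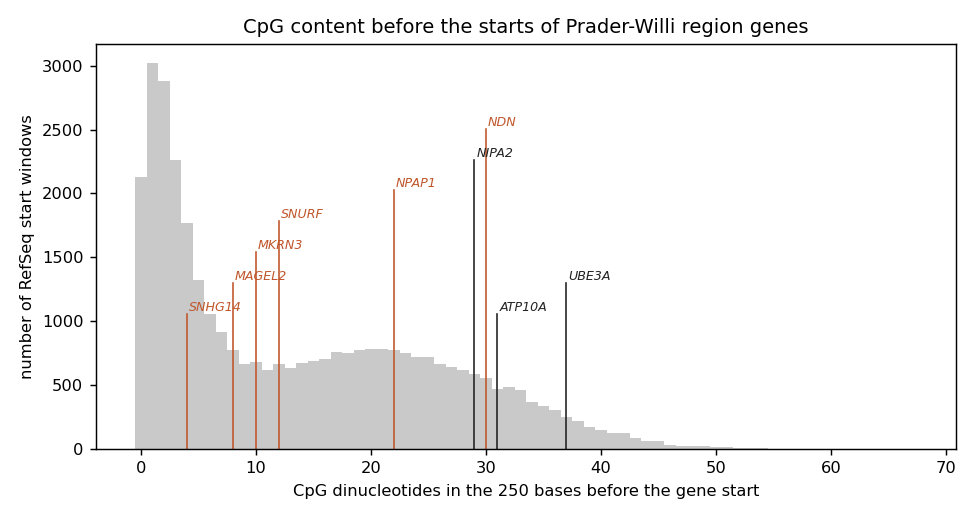
CpG sites in the 250 bases before gene starts. The x axis gives the number of CpG dinucleotides, grey bars (y axis) give the number of RefSeq windows with that number, and vertical lines mark the windows of the genes described (orange, paternally expressed; black, UBE3A, ATP10A and NIPA2; the window with the most CpG sites where a gene has several, SNRPN shown by SNURF). Line heights only separate the labels. NDN lies at 30 beside NIPA2 at 29, while SNHG14, MAGEL2, MKRN3 and SNURF lie between 4 and 12.

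The windows were searched on both strands for 3 short motifs of factors known at imprinted or CpG-rich starts, and a match is a description of the letters only. TGCCGC, the hexamer read by the imprint-protecting zinc finger protein ZFP57 when methylated, was in the windows of NDN, SNURF, NIPA2 and ATP10A and in another SNRPN window, and in 12.7% of all windows. GCGCATGC, a core of the NRF1 site, was in the SNURF window and in no other window of the 10 genes, and in 2.63% of all windows. ATGGCG, a core of the YY1 site, was in the windows of MKRN3 and NDN and in 2 of the 3 UBE3A windows, and in 6.50% of all windows. The 3 motifs are not contained in each other. ZFP57 itself was listed at 0 in all 6 libraries.

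In HELLS KO, 7 paternally expressed genes that were silent or close to silent in HAP1 gave reads. Their summed counts were 49 in the 3 HAP1 libraries and 8777 in the 3 HELLS KO libraries. By level, SNHG14, NDN, MKRN3 and SNRPN carried nearly all of them, and MAGEL2, NPAP1 and SNURF stayed at the edge of detection. The libraries of UBE3A, ATP10A and NIPA2 overlapped between the genotypes. Since the genes were chosen with the values of this same contrast known, their differences are given as a description without a test. In a bulk library, more cells with an RNA and more RNA per cell cannot be told apart.

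The total count ranged from 13641237 to 24400187 per library, and replicate 3 of each genotype was the deepest. Where a library has 0 counts of a gene, up to 3 may be missed by chance, which is 0.123 to 0.218 CPM (counts per 1000000 counts of the scaled library) depending on the library and covers counting error only. Counts of 2 were more frequent than counts of 1 in every library (2748 to 3025 genes against 1267 to 1925). Whether the mates of a pair were counted separately was not tested, so intervals are given on read pairs, which makes them wider. Folds against a silent HAP1 group set the observed HELLS KO counts against a bound of 3 read pairs (6 counts) over that group. They leave out the counting error of HELLS KO and are no strict lower limits. HELLS RNA was present at 121 ± 28.0 CPM in HAP1 against 103 ± 10.7 in HELLS KO (SD, n = 3), with a log2 fold change of -0.24 (SE 0.18, adjusted p = 1.0 by edgeR), so the transcript level does not check the genotype label. Of 14 haematopoietic markers, SPI1 and HBG1 were at 0 and PTPRC at 2 counts or fewer in every library, while GATA2 and RUNX1 were expressed.

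At the imprinting centre, SNRPN encodes SmN, a core protein of spliceosomal small nuclear ribonucleoproteins that is prominent in brain. It spans chr15:24823637-24978723 on the + strand (GRCh38, GENCODE 44). No read was counted for it in any HAP1 library, and 77, 62 and 177 counts were found in HELLS KO replicates 1, 2 and 3, or 5.29, 4.34 and 7.27 CPM. Every HELLS KO library lay above every HAP1 library, and the observed level was 51.5-fold the HAP1 bound. SNURF, the upstream reading frame of the same transcript, had 0 counts in HAP1 against 0, 0 and 17 in HELLS KO. Its reads came from HELLS KO replicate 3 only, so the groups overlap and the observed 2.77-fold against the HAP1 bound rests on that library. Of the exonic bases of SNURF, 52.1% are shared with SNRPN or another gene on the same strand, and 33.6% of those of SNRPN are shared likewise, so the split of reads between these genes depends on how shared exons were counted.

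SNHG14 starts at the end of SNRPN in this annotation, covers chr15:24978583-25420336 on the + strand and is the host RNA of the SNORD116 and SNORD115 small nucleolar RNAs. It was the only paternally expressed gene with reads in every HAP1 library, with 7, 2 and 34 counts, compared with 795, 894 and 3227 in HELLS KO. In CPM these were 0.492, 0.145 and 1.42 against 54.6, 62.6 and 132.5. The lowest HELLS KO library lay far above the highest HAP1 library, and the log2 fold change was 6.74 (SE 0.66), or 107-fold. Replicate 3 was high in each genotype, at 4.44 times the mean of replicates 1 and 2 in HAP1 and 2.26 times in HELLS KO, while the median gene stood at 1.02 and 1.01. In replicates 1 and 2 alone the log2 fold change was 7.45, without HAP1 replicate 3 it was 7.99, and without HELLS KO replicate 3 it was 6.24.

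Other annotated transcripts along SNHG14 gave reads in the same libraries. Of the exonic bases of SNHG14, 8.94% are shared on the same strand with PWAR5, PWAR1, ENSG00000261069 and others. Reads there cannot be told apart from those of SNHG14, so these rows are not independent of it. PWAR5, an annotated transcript inside SNHG14 at chr15:24985053-24988232, had 0 counts in each HAP1 library and 10, 67 and 213 in HELLS KO, or 47.2-fold the HAP1 bound. These libraries differ widely, and PWAR5 did not pass the test (log2 fold change 9.38, SE 1.77, adjusted p = 0.096 by edgeR). It passed with a replicate block (adjusted p = 0.00098), in which libraries of the same replicate number are paired. Named after their values were seen, ENSG00000261069 had 0 counts in HAP1 against 7, 15 and 58 in HELLS KO, and PWAR1 had 0 and then 2, 4 and 8. Of the 30 SNORD116 rows, 12 had any count, and they summed to 0 in each HAP1 library and to 0, 6 and 36 in HELLS KO. All 49 SNORD115 rows, which lie farther along and closer to UBE3A, were at 0 in all 6 libraries. Reads with a mapping quality under 20 were removed, which can take away reads of repeated copies. A 0 for these small RNAs is therefore no sign of where transcription ends.

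NDN encodes necdin, a growth suppressor of the MAGE family that binds E2F1, from 1 exon at chr15:23685400-23687305 on the - strand. It had 0, 0 and 2 counts in HAP1 against 706, 576 and 1095 in HELLS KO, or 48.5, 40.3 and 45.0 CPM in the latter. The HELLS KO libraries were close to each other, with replicate 3 at 1.01 times the mean of the others, and all lay far above HAP1. The ratio of summed counts, scaled by library size, was 1161 (exact 95% interval for counting error 208 to 45920 on read pairs). No annotated gene shares exonic bases with NDN on either strand. Per exonic base, NDN reached 0.370, 0.302 and 0.575 counts in HELLS KO replicates 1, 2 and 3 and at most 0.00105 in HAP1.

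MKRN3 encodes a makorin RING-finger ubiquitin ligase whose loss in people causes early puberty, and lies at chr15:23565674-23630075 on the + strand. Its counts were 0, 0 and 2 in HAP1 and 261, 246 and 614 in HELLS KO, or 17.9, 17.2 and 25.2 CPM in HELLS KO. Replicate 3 was the highest at 1.43 times the mean of the others, and the genotypes did not overlap. The scaled ratio was 548 (95% interval 98.0 to 21686 on read pairs). Of its exonic bases, 25.2% are shared on the opposite strand with ENSG00000260978, a non-coding gene that had 0 counts in HAP1 against 7, 26 and 46 in HELLS KO and is named after its values were seen. Since the strand setting of the counting is not given in the sources used here, reads of this pair cannot be told apart where they overlap.

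MAGEL2 and NPAP1 stayed very low. MAGEL2, which works with the ubiquitin ligase TRIM27 in endosomal recycling, had 0, 0 and 2 counts in HAP1 against 6, 6 and 8 in HELLS KO. Each HELLS KO library was above each HAP1 library, with a scaled ratio of 9.77 (95% interval 1.39 to 424 on read pairs). NPAP1, a gene of nuclear pore association that is best known from testis, had no count in HAP1 and 2, 2 and 6 in HELLS KO. These were 1.63-fold the HAP1 bound, and with so few counts in HELLS KO a difference is not secured. MAGEL2 lies between MKRN3 and NDN on the chromosome, and in HELLS KO its mean level per length was 0.0884 FPKM (fragments scaled by gene length and library size), against 3.45 and 22.7 FPKM for them.

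**Figure D2:**
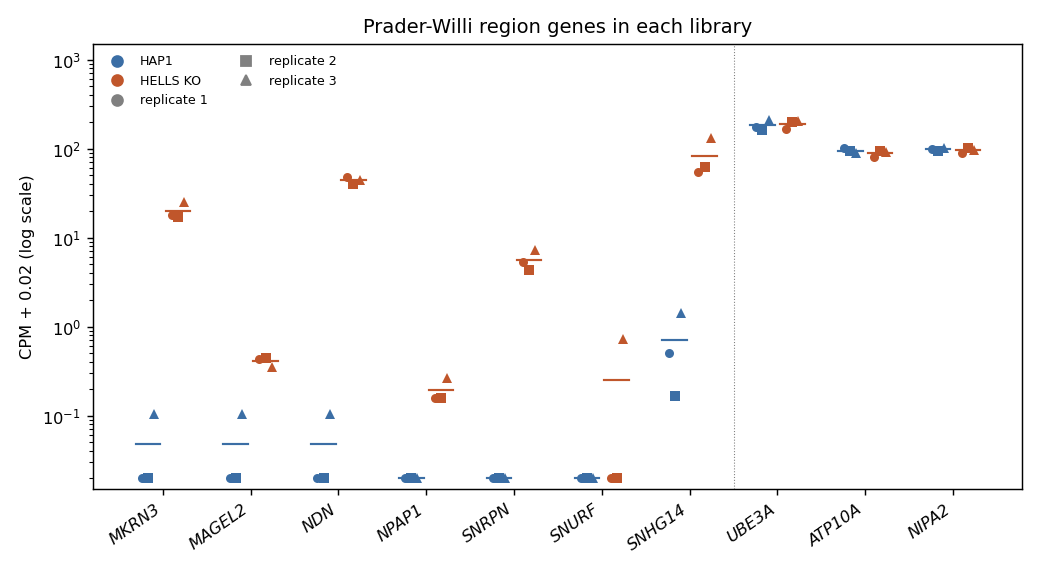
Level of the 10 genes in every library. The y axis gives CPM + 0.02 on a log scale, with points for the libraries (blue, HAP1; orange, HELLS KO; circle, square and triangle for replicates 1, 2 and 3) and a line for the mean of 3. The paternally expressed genes, left of the dotted line, separate by genotype except SNURF, which has reads in 1 library, and UBE3A, ATP10A and NIPA2 overlap. The separation of NPAP1 rests on 2, 2 and 6 counts in HELLS KO and is not secured.

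UBE3A, the ubiquitin ligase of Angelman syndrome, had 2520, 2223 and 5087 counts in HAP1 against 2407, 2835 and 5012 in HELLS KO. Its mean was 184 ± 25.8 CPM in HAP1 against 190 ± 21.5 CPM in HELLS KO (SD, n = 3), the libraries overlapped and the log2 fold change was 0.048 (SE 0.14). SNHG14 overlaps 9.57% of the exonic bases of UBE3A on the opposite strand, so the counts of the pair cannot be fully told apart. ATP10A, a phospholipid flippase, stood at 94.7 ± 5.98 and 89.0 ± 7.82 CPM, with a log2 fold change of -0.088 (SE 0.12). NIPA2, a magnesium transporter gene near the edge of the region, stood at 97.9 ± 3.50 and 96.4 ± 5.63 CPM, with a log2 fold change of -0.023 (SE 0.11). For these 3 genes the difference between genotypes was within the spread of the libraries, and 43.4% of the exonic bases of NIPA2 are shared with CYFIP1 on the opposite strand.

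Of the 10 genes, 7 passed the filter on low counts of the fit over all genes, and MAGEL2, NPAP1 and SNURF did not. MKRN3, NDN, SNRPN and SNHG14 had fitted log2 fold changes of 8.81 (SE 0.54), 9.95 (SE 0.45), 9.63 (SE 0.71) and 6.74 (SE 0.66). These 4 stand among the genes called higher, because the genes were selected on their counts in HAP1 and HELLS KO, and no p is given for them. Over all 17925 genes tested, 269, or 1.50%, were called higher (adjusted p under 0.05 and a log2 fold change of at least 1) and 129, or 0.720%, lower, and all 3 HELLS KO libraries were above all 3 HAP1 libraries for 4.99% of genes. Nothing is read from the share of the genes described. Fitted values for MKRN3, NDN and SNRPN rest on HAP1 groups with 2 counts or fewer and are no bounds.

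Levels of different genes can be compared only per length, here as the FPKM of the authors. In HELLS KO the order was NIPA2 at 27.0 ± 1.47 FPKM, NDN at 22.7 ± 2.21, UBE3A at 15.9 ± 1.79, ATP10A at 10.4 ± 0.881, MKRN3 at 3.45 ± 0.780, SNHG14 at 2.24 ± 1.17 and SNRPN at 1.90 ± 0.516 (SD, n = 3). SNURF and MAGEL2 followed at 0.196 and 0.0884 FPKM, and NPAP1 has no FPKM value. Within every HELLS KO library, MKRN3 lay above SNHG14 and above SNRPN, and NIPA2 lay above NDN. SNHG14 lay below SNRPN in HELLS KO replicate 1 (1.47 against 1.79 FPKM) and above it in replicates 2 and 3. Per exonic base it lay below SNRPN in every HELLS KO library (0.0065, 0.0073 and 0.0263 counts against 0.0226, 0.0182 and 0.0519). The order of NDN and NIPA2 and that of SNHG14 and SNRPN thus depend on the gene length used. The reads of SNRPN and SNHG14 also depend on how shared exons were counted. By FPKM, NDN reached percentile 87.8 of the genes with a value and lay above the 3 UBE3A libraries. MKRN3, SNHG14 and SNRPN lay near the median of 2.73 FPKM. In HAP1 the same 4 genes were at or under percentile 2.38.

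Within the region, the silent-to-expressed difference stood between genes that differed little. Between the start of TUBGCP5 and the end of HERC2 lie 155 other gene rows, of which 8 passed the filter, 1 was called higher in HELLS KO and 0 lower, with a median log2 fold change of 0.040 against 0.0064 over all genes tested. On the centromeric side, NIPA1 and CYFIP1 (both added after the files were seen, since they lie just outside that interval) and TUBGCP5, a gamma-tubulin complex gene, had log2 fold changes of -0.070 (SE 0.21), -0.088 (SE 0.10) and -0.081 (SE 0.26). On the telomeric side, OCA2, a melanosome transporter, and HERC2, a ubiquitin ligase that binds UBE3A, had -0.042 (SE 0.24) and 0.020 (SE 0.28). The pseudogenes ENSG00000274471 and RPL5P1 had 0.060 (SE 0.20) and 0.21 (SE 0.76). All of these had an adjusted p of 1.0 by edgeR. On the rest of chromosome 15, 613 genes were tested, 3 were higher and 4 lower, with a median of 0.011.

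**Figure D3:**
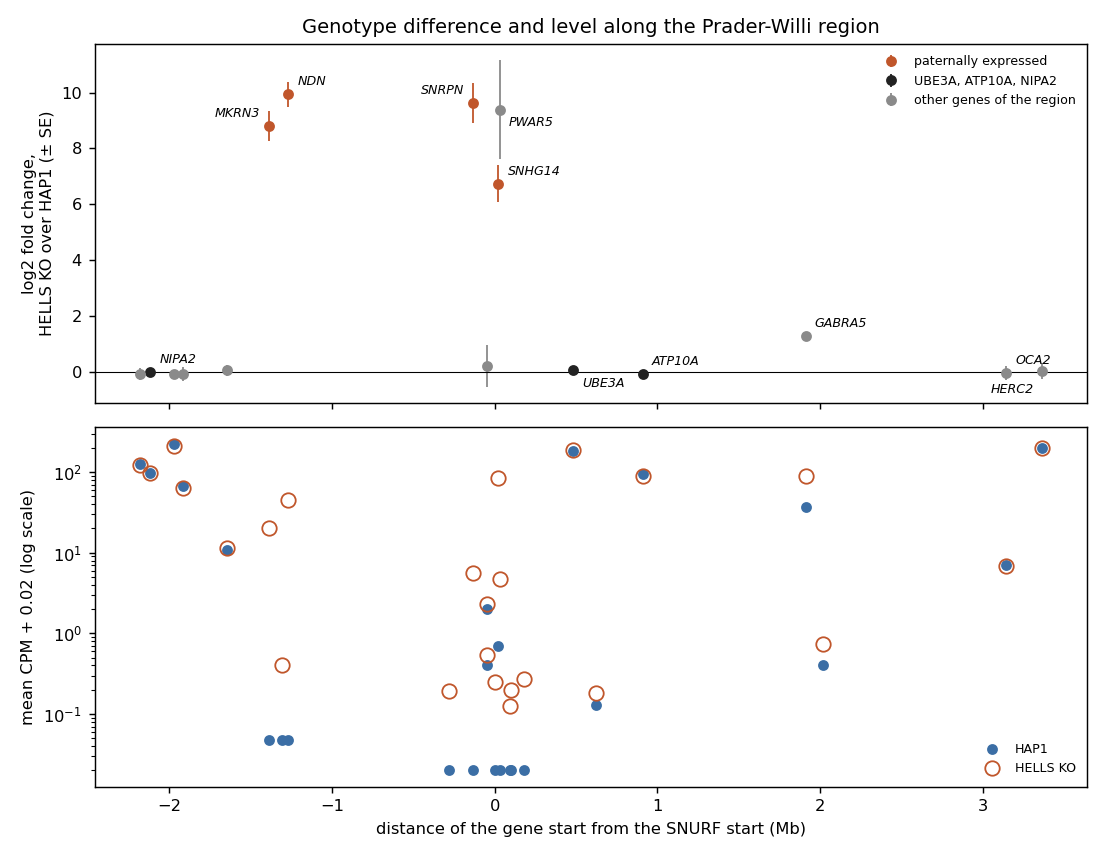
Genes by distance from the SNURF start in Mb (x axis). Top, log2 fold change of HELLS KO over HAP1 with its SE for tested genes (orange, paternally expressed; black, UBE3A, ATP10A and NIPA2; grey, others). Bottom, mean CPM + 0.02 on a log scale in HAP1 (filled) and HELLS KO (open). MKRN3, NDN, SNRPN, SNHG14 and PWAR5 lie between 6.74 and 9.95, GABRA5 lies at 1.28, and the other tested genes shown lie within 0.21 of 0.

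GABRA5, which encodes an alpha subunit of the GABA-A receptor, was the neighbour called in the fit without a replicate block. It had 503, 476 and 976 counts in HAP1 against 1259, 1358 and 2106 in HELLS KO, or 36.9 ± 3.30 against 89.4 ± 4.94 CPM (SD, n = 3). The libraries of the genotypes did not overlap, and the log2 fold change was 1.28 (SE 0.13, adjusted p = 0.0031 by edgeR), or 2.42-fold. Unlike the paternally expressed genes, GABRA5 was well expressed in HAP1. GABRA5 (chr15:26866911-26949208, + strand) is partly overlapped on the opposite strand, and reads cannot be told apart there without the strand setting.

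**Figure D4:**
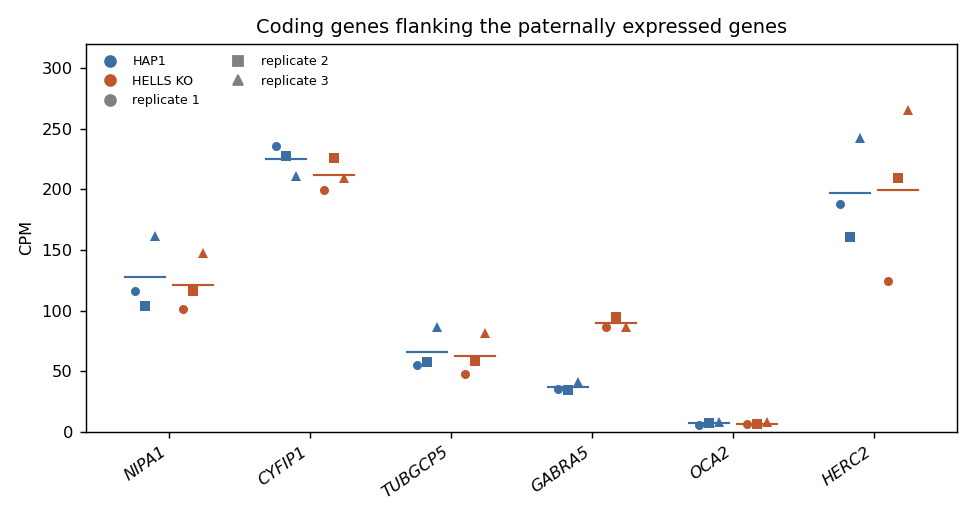
CPM (y axis, linear from 0) of 6 coding genes around the paternally expressed cluster, from the centromeric to the telomeric side, with points for libraries (blue, HAP1; orange, HELLS KO; shapes for replicates) and lines for means of 3. GABRA5 separates by genotype, at 34.6 to 40.7 against 86.5 to 95.1 CPM, and the other 5 overlap.

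Genes that work with the products of this region were followed as lists, all on the scale of log2 fold change. The 7 Sm core genes (SNRPD1, SNRPD3, SNRPB and others), whose proteins form the ring in which SmN can take the place of SmB, were all tested with no call and a median of 0.0074. The makorins MKRN1 and MKRN2 had no call and a median of 0.023. Of 9 type II MAGE genes, the family of NDN and MAGEL2, 7 were tested with no call and a median of 0.014, and MAGED1, MAGED2 and MAGEF1 were the most abundant. None of 12 necdin partners (median 0.011, among them HNRNPU and MAGED1), 13 MAGEL2 partners (0.054, among them USP7, CUL4A and VPS35) or 12 UBE3A partners (-0.0088, among them UBE2D3 and HERC2) was called. The UBE3A partner farthest from 0 was ARC, named after its values were seen (log2 fold change -1.02, SE 0.38, adjusted p = 0.57 by edgeR). The 5 NIPA genes tested had no call (-0.14), nor had ATP10D (0.33), the relative of ATP10A that passed the filter. For these lists the medians lay near that of all genes, except those of NIPA and ATP10, which rest on 5 genes and 1 gene.

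The genes that maintain imprints were also followed. Of 20 listed, 17 were tested and none was called, with log2 fold changes from -0.10 to 0.18 and a median of 0.023. Among the most abundant were DNMT1, the maintenance DNA methyltransferase, and TRIM28, a corepressor. On the telomeric flank in 15q13, 7 of 12 listed genes were tested, with no call and a median of 0.050, TJP1, APBA2 and FAN1 being the most abundant. Prohormone processing, studied in Prader-Willi syndrome, gave 3 tested of 8 listed genes, no call and a median of 0.45. Its most abundant gene was CPE, carboxypeptidase E, with 707, 752 and 1073 counts in HAP1 against 1047, 1023 and 1454 in HELLS KO, and it missed the threshold (adjusted p = 0.35 by edgeR).

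Markers of other cell types were read beside the paternally expressed genes. None of 10 tested neuronal markers of 12 was called (median -0.022), ELAVL4 was at 0, and the summed CPM was 52.3 to 60.9 in HAP1 and 59.9 to 71.8 in HELLS KO. None of 4 tested fibroblast markers of 8 was called (median 0.038), DCN, LUM and FAP were at 0, and the summed CPM was 103 to 154 and 101 to 128. Of 14 haematopoietic markers, 5 were tested and KIT was lower in HELLS KO, with 319, 270 and 933 counts in HAP1 against 32, 40 and 138 (log2 fold change -2.90, SE 0.43, adjusted p = 0.015 by edgeR), and the summed CPM was 165 to 181 and 148 to 152. The KIT call was lost without HELLS KO replicate 1 (log2 fold change -2.65, adjusted p = 0.069 by edgeR) or 2 (-2.76, adjusted p = 0.11).

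Over all genes, the profiles most like that of NDN across the 6 libraries, by root mean square distance of log2 CPM centred on each gene's mean, were CSAG1 (0.182), CTAG2 (0.222), LINC00839 (0.280), MAGEA1 (0.280) and MAGEA11 (0.315). CSAG1, CTAG2, MAGEA1 and MAGEA11 lie on chromosome X and LINC00839 on chromosome 10. CSAG1, for example, had 0, 0 and 2 counts in HAP1 against 593, 502 and 777 in HELLS KO. MKRN3 lay at 0.606 from NDN, SNHG14 at 0.963 and SNRPN at 1.40, against a median of 4.19 for all genes tested. With 0 to 2 counts in HAP1, such a distance rests largely on the level in HELLS KO, and it is a description over 6 libraries.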

How the data were processed

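RNA-seq libraries of total RNA were prepared by the authors with a directional kit from 3 biological replicates of HAP1 and 3 of HELLS KO. Per the labels and the study's methods, reads were aligned with STAR 2.7.3a to GRCh38, duplicates and reads with a mapping quality under 20 were removed, and featureCounts 2.0.6 gave the deposited counts (60483 rows). The annotation release and strand setting are not given in the sources used here. The authors also deposited FPKM values of 24956 genes, which include 9 of the 10 genes. Every column matched a sample.

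Of the identifiers, 56321 matched GENCODE 44 (GRCh38), which gave symbols, positions and exon overlaps. The counts were fitted with edgeR 4.0.16 in R 4.3.3 (filterByExpr, TMM, quasi-likelihood test, Benjamini-Hochberg over 17925 genes), without a block. Calls required an adjusted p under 0.05 together with a log2 fold change of 1 or more in either direction. SE was derived from the fold change and F. CPM used TMM-scaled library sizes. Totals of 13641237 to 24400187 counts limit the precision of low genes, and intervals cover counting error only. The alternatives were DESeq2 1.42.0, upper-quartile and DESeq2 size factors in edgeR, no filter, at least 10 counts in every library, the replicate block, a batch term, replicates 1 and 2 only, each library left out, and limma 3.58.1 on log2(FPKM + 1) and log2(FPKM + 0.1), a scale that understates low genes.

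The deviations of same-numbered libraries from their genotype means correlated at 0.416, 0.197 and 0.778 for replicates 1, 2 and 3. The labels put replicate 3 of each genotype in a batch of its own. Since each genotype was centred on its own mean, a shared shift of replicate 3 can by itself give such values for replicates 1 and 2. Libraries of unlike number were not compared, so a pairing of replicates 1 and 2 is not shown.

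The genes and lists were chosen with earlier results of these data known. Named were HELLS, the 10 genes, other tested genes of the region, called list genes with up to 3 abundant members, and the 5 profiles nearest to NDN, and exceptions are marked. Some genes that the counts include are not reported here by name. In a test on simulated data, 188 of 200 genes shifted by 2 on the log2 scale were recovered among 17473 genes, with 5 false calls. The simulated counts had no batch and a spread set by level alone, and genes of very low level were not shifted. These figures therefore do not carry over to genes silent in HAP1. No explanation was tested.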

Additional observations from a re-analysis of the deposited data

How the results depend on the processing

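The paternally expressed genes were selected on this contrast, so their calls under the alternatives say nothing of stability. None of them passed the filter of at least 10 counts per library. GABRA5 was called in all 16 alternatives, at log2 fold changes of 1.18 to 1.36 and adjusted p of up to 0.037.

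Counts over all genes moved more. Genes called higher, 269, became 426 by DESeq2, 415 with no filter, 29 with at least 10 counts in every library and 164 by limma on log2(FPKM + 1), and 112 to 273 with a library left out, the lowest without HELLS KO replicate 2. Genes called lower, 129, became 244, 200, 48 and 66 in the same alternatives, 267 with the replicate block, 285 with the batch term and 219 in replicates 1 and 2 only, and 40 to 176 with a library left out, again lowest without HELLS KO replicate 2. They fell to 62 without HELLS KO replicate 1, 69 without HAP1 replicate 1 and 84 without HAP1 replicate 2, and genes called higher to 160 and 173 without HELLS KO replicate 1 and HAP1 replicate 1. The cause was not tested.

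The neighbours called, 1 (GABRA5), became 2 with PWAR5 under the replicate block and under the batch term (adjusted p = 0.027), 4 by DESeq2 and with no filter (also ENSG00000260978 and ENSG00000261069), and 1 to 2 with a library left out (PWAR5 without HELLS KO replicate 1, adjusted p = 0.035). PWAR5 had an adjusted p of 0.00016 to 0.38 over its 15 alternatives. Listed genes called, 1 (KIT), became 0 with at least 10 counts in every library (adjusted p = 0.053), 2 in replicates 1 and 2 only (with ARC, adjusted p = 0.025), and 0 to 2 with a library left out (with ARC without HAP1 replicate 3, adjusted p = 0.041). The replicate block changed no other call named here.

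HAP1 replicate 3 set the fitted fold changes of genes with nothing else in HAP1. Without it the log2 fold change of NDN went from 9.95 to 12.5 and that of MKRN3 from 8.81 to 11.4. On log2(FPKM + 1), which understates low genes, it was 4.54 for NDN, 2.13 for MKRN3, 1.61 for SNHG14 and 1.52 for SNRPN. At this depth, MAGEL2, NPAP1 and SNURF are resolved only to the bounds given.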

Other observations

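HBB, a haemoglobin gene on the haematopoietic list, is named here after its values were seen. It had 0, 0 and 330 counts in HAP1 against 0, 0 and 269 in HELLS KO, so its reads came from replicate 3 of each genotype, the replicate with a batch label. The 2 counts each of MKRN3, MAGEL2 and NDN in HAP1 came from replicate 3 as well, as did 34 of the 43 counts of SNHG14. Whether these go together was not tested. GABRG3, a GABA-A receptor gene beside GABRA5 that did not pass the filter and was also chosen after its values were seen, had 5, 6 and 9 counts in HAP1 against 11, 8 and 20 in HELLS KO.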
